A study of Arabidopsis thaliana with 20 samples.

Results

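The subject is the ADR1-dependent part of the transcriptional response to DM1-DM2d in Arabidopsis thaliana shoots: the DM1-DM2d effect with the ADR1 genes intact minus the DM1-DM2d effect in adr1s. It was chosen by that contrast alone and rests on 11 of the 20 RNA-seq libraries of the series. DM1-DM2d adr1s (n = 3) carried the DM1 and DM2d transgenes in plants whose ADR1, ADR1-L1 and ADR1-L2 had been knocked out with CRISPR-Cas9 and multiplexed guides, and Col-0 adr1s (n = 3) carried the knockouts without the transgenes. DM1-DM2d (n = 3) carried the transgenes with the ADR1 genes intact, and Col-0 12 DAS (n = 2) was the untransformed accession; both were collected 12 days after sowing (DAS). The labels give no age for the adr1s plants, and do not say whether a line is a single transformant. All plants grew on plates of Murashige and Skoog medium under long days, and aerial tissue was collected. DM1-DM2d and Col-0 12 DAS are label batch 1, and both adr1s groups are label batch 3. The state of the ADR1 genes and the label batch therefore cannot be told apart, and only the difference between the 2 effects, each measured within its own batch, is tested; levels set side by side across the backgrounds are given as values only. For a comparison at the end, 3 libraries each of DM6-DM7 adr1s, DM6-DM7 and Col-0 14 DAS were also used, the last 2 groups being label batch 2 and the first label batch 3.

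DANGEROUS MIX (DM) genes are natural immune receptor alleles that cause autoimmunity when they meet in 1 plant. DM1 and DM2d both encode nucleotide-binding leucine-rich repeat receptors (NLRs) with a TIR domain. TIR-type NLRs signal through EDS1, which pairs with PAD4 or SAG101 and engages helper NLRs; the ADR1 family works with EDS1 and PAD4, and the NRG1 family with EDS1 and SAG101. Activated helpers form calcium-permeable channels in the plasma membrane. Salicylic acid made by ICS1 amplifies the signal, and growth and photosynthesis genes are commonly repressed during strong immune activation.

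The 11 libraries held 48360933 to 104370141 counts, and the adr1s libraries 48360933 to 58867219. Plastid-encoded genes took 0.11% ± 0.052 of counts in DM1-DM2d adr1s and 0.0918% ± 0.0092 in Col-0 adr1s, against 10.9% ± 0.58 in DM1-DM2d and 42% ± 0.23 in Col-0 12 DAS (SD; n = 3, 3, 3 and 2). This share moves with the ADR1 state and the batch, and within label batch 1 it also differs between DM1-DM2d and Col-0 12 DAS. The differences of plastid and mitochondrial genes are therefore not interpreted. With organelle genes removed from the fit, 13554 differences were called in place of 13658, with a median of -0.19 in place of -0.16. Beyond that refit, the part of this share in the other results was not tested. The replicates of Col-0 12 DAS stood apart on immune genes: replicate 1 held 19.9 CPM of PR1 and 41.9 CPM of ICS1, and replicate 2 held 1.78 and 7.93 CPM. Immune results whose call changes, or whose value moves by over 1.5 times, without 1 of them are therefore given with that value; with 1 left out, the remaining library is assumed to vary like the other groups. The summed level of 4 shoot markers was 21205 to 26515 CPM in DM1-DM2d adr1s and 41906 to 46762 CPM in Col-0 adr1s, against 1126 to 1343 CPM in DM1-DM2d and 22931 to 24013 CPM in Col-0 12 DAS. The summed level of 7 root markers was 59.5 to 76.9, 76.9 to 86.1, 26.1 to 28.3 and 36 to 37.1 CPM in DM1-DM2d adr1s, Col-0 adr1s, DM1-DM2d and Col-0 12 DAS, with EXPA18 at 0 in every group. Summed markers of the vasculature (5 genes) were at 160 to 199 CPM in DM1-DM2d adr1s and 196 to 234 CPM in Col-0 adr1s, against 61.9 to 65.2 CPM in DM1-DM2d and 104 to 136 CPM in Col-0 12 DAS. In whole shoots, fewer cells of a type and less RNA per cell cannot be told apart.

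Values per library are counts per 1000000 counts (CPM) of the TMM-scaled total, and 3 counts in a library correspond to 0.033 to 0.058 CPM. Each ± after a log2 value is its standard error. A positive difference means that the DM1-DM2d effect was more positive with the ADR1 genes intact, and a negative difference that it was more positive in adr1s. A gene is called where edgeR's quasi-likelihood test gave a Benjamini-Hochberg adjusted p below 0.05. The labels number the libraries of a group as biological replicates and do not say whether they came from separate plates or plants, so p-values measure the spread between these libraries only.

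The response to DM1-DM2d reached more genes, and went further, with the ADR1 genes intact than in adr1s, most of all among genes that fell. The difference was called for 13658 of 23349 genes tested (58.5%), 6067 of them positive (26%) and 7591 negative (32.5%). Upper-quartile scaling gave 4613 positive and 9083 negative calls, with a median difference over all genes of -0.44 in place of -0.16, a shift of -0.27. RLE scaling gave 6416 positive and 7208 negative calls, and DESeq2 6703 and 7438, each with a median of -0.09. Within adr1s, DM1-DM2d changed 9973 genes (42.7%), 5582 higher (23.9%) and 4391 lower (18.8%). With the ADR1 genes intact it changed 17045 genes (73%), 8555 higher (36.6%) and 8490 lower (36.4%). The adr1s libraries held fewer counts, and the part of depth in the numbers of genes called was not tested. The largest class, 3574 genes, fell only with the ADR1 genes intact, with a median log2 effect of -0.08 in adr1s and -1.87 with ADR1 intact. A further 2510 genes fell in both backgrounds and more strongly with ADR1 intact, with medians of -0.68 and -2.66. On the other side, 3003 genes rose only with ADR1 intact (medians 0.02 in adr1s and 1.09 intact), and 2117 rose in both and more strongly with ADR1 intact (medians 0.67 and 1.95).

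A smaller set went the other way. The effect was higher only in adr1s for 531 genes, and 681 genes were higher in adr1s yet lower with ADR1 intact. Another 167 genes rose in both backgrounds and more strongly in adr1s. Of the 8555 genes that rose with ADR1 intact, 66.1% had a positive difference and 31.9% were not called in the difference. Of the 8490 that fell, 79.7% had a negative difference. The effect with ADR1 intact is part of the difference, so choosing genes by it favours these shares in advance. Of the 5582 genes that rose in adr1s, 37.9% had a positive, 37.4% an uncalled and 24.7% a negative difference. Of the 4391 that fell in adr1s, 57.2% had a negative, 23.2% an uncalled and 19.7% a positive difference. The genes that rose in both backgrounds without a called difference numbered 1732, with median effects of 1.38 in adr1s and 1.48 with ADR1 intact.

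**Figure D1:**
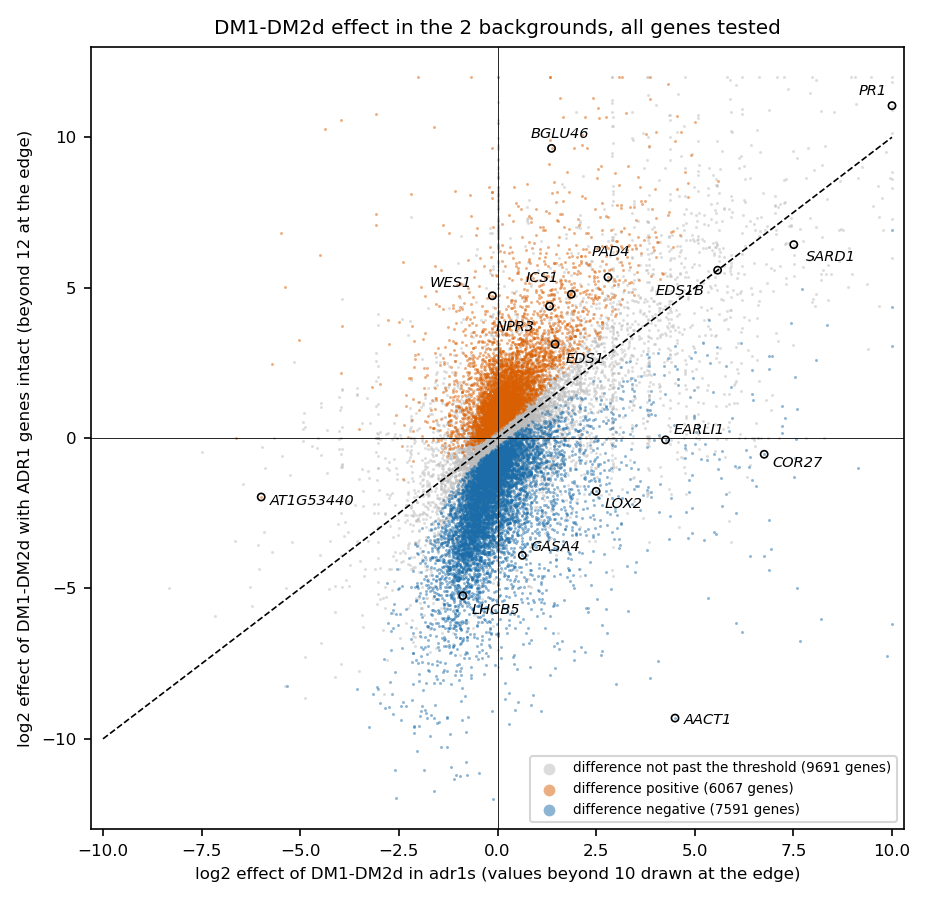
Log2 effect of DM1-DM2d in adr1s (x axis) and with the ADR1 genes intact (y axis) for the 23349 genes tested; the dashed line marks equal effects, and points beyond the axis limits, PR1 among them on the x axis, are drawn at the edge. The 6067 genes with a positive difference lie above the line and the 7591 with a negative one below it, while PR1, SARD1 and EDS1B lie far from the origin without a called difference.

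The edited helper genes were read first. ADR1 (AT1G33560, chromosome 1, 12168768 to 12172119 in TAIR10.1) stood at 58.8, 67.7 and 59.8 CPM in DM1-DM2d adr1s, against 9.03, 8.68 and 12.4 CPM in Col-0 adr1s, and at 191, 186 and 182 CPM in DM1-DM2d, against 21.3 and 21.4 CPM in Col-0 12 DAS. ADR1-L1 (AT4G33300) gave 53.6, 55 and 60.1 CPM in DM1-DM2d adr1s, against 29.8, 30.2 and 32.4 CPM in Col-0 adr1s, and 530, 567 and 512 CPM in DM1-DM2d, against 87.4 and 69.2 CPM in Col-0 12 DAS. ADR1-L2 (AT5G04720) gave 26.5, 26 and 26.4 CPM in DM1-DM2d adr1s, against 17, 11.9 and 20 CPM in Col-0 adr1s, and 203, 199 and 186 CPM in DM1-DM2d, against 44.4 and 43.9 CPM in Col-0 12 DAS. Transcripts of all 3 genes were thus counted in the adr1s libraries, and in both backgrounds no DM1-DM2d library overlapped its Col-0 group. Small edits are invisible in counts per gene, and the loss of function is taken from the labels alone. The DM1-DM2d effect on ADR1-L1 was 0.87 ± 0.14 in adr1s and 2.77 ± 0.17 with ADR1 intact, a difference of 1.91 ± 0.21 (adjusted p = 4.9e-07). For ADR1-L2 the difference was 1.46 ± 0.26 (adjusted p = 9.76e-05), and for ADR1 itself 0.50 ± 0.30, which was not called (adjusted p = 0.162; called when the 11 libraries were fitted alone).

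EDS1 and PAD4, the partners of the ADR1 helpers, rose in both backgrounds and more strongly with ADR1 intact. EDS1 (AT3G48090, chromosome 3, 17755329 to 17758147) was at 56.3, 43.3 and 69.6 CPM in DM1-DM2d adr1s, against 19.9, 19.9 and 21.7 CPM in Col-0 adr1s, and at 323, 347 and 311 CPM in DM1-DM2d, against 40.9 and 34.1 CPM in Col-0 12 DAS. PAD4 (AT3G52430, chromosome 3, 19431095 to 19434450) was at 44.7, 43.4 and 68.6 CPM in DM1-DM2d adr1s, against 6.91, 7.24 and 8.3 CPM in Col-0 adr1s, and at 961, 1136 and 930 CPM in DM1-DM2d, against 37.1 and 12.5 CPM in Col-0 12 DAS. For both genes the groups of each pair were fully separated. The difference was 1.66 ± 0.27 for EDS1 (adjusted p = 4.48e-05; 1.78 without Col-0 12 DAS replicate 1 and 1.49 without replicate 2). It was 2.54 ± 0.56 for PAD4 (adjusted p = 0.00107; 3.52 and 1.91 without those replicates in the same order).

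NRG1.1, a helper of the second family, was at 23, 19.7 and 21 CPM in DM1-DM2d adr1s, against 21.5, 21.1 and 22 CPM in Col-0 adr1s, where the groups overlapped. With ADR1 intact it was at 65.9, 69 and 67.4 CPM in DM1-DM2d, against 30.6 and 30.9 CPM in Col-0 12 DAS, and the difference was 1.15 ± 0.12 (adjusted p = 3.01e-07). NRG1.2 had effects of 1.68 ± 0.17 in adr1s and 3.04 ± 0.21 with ADR1 intact, with a difference of 1.36 ± 0.26 (adjusted p = 0.000192). SAG101, the EDS1 partner of this branch, had a smaller difference of 0.66 ± 0.22 (adjusted p = 0.017), which lost its call without Col-0 12 DAS replicate 1 (0.54), without DM1-DM2d adr1s replicate 1 and under upper-quartile scaling. EDS1B, the tandem copy of EDS1 whose reads a counter may share with it, had an effect of 5.58 in each background, with no called difference (0.56 without Col-0 12 DAS replicate 1 and -0.45 without replicate 2). In all, 7 of the 9 genes of this node had a positive called difference and none a negative one (6 positive without Col-0 12 DAS replicate 1), beside 26% and 32.5% of all genes, with a median of 1.36 beside -0.16 over all genes.

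**Figure D2:**
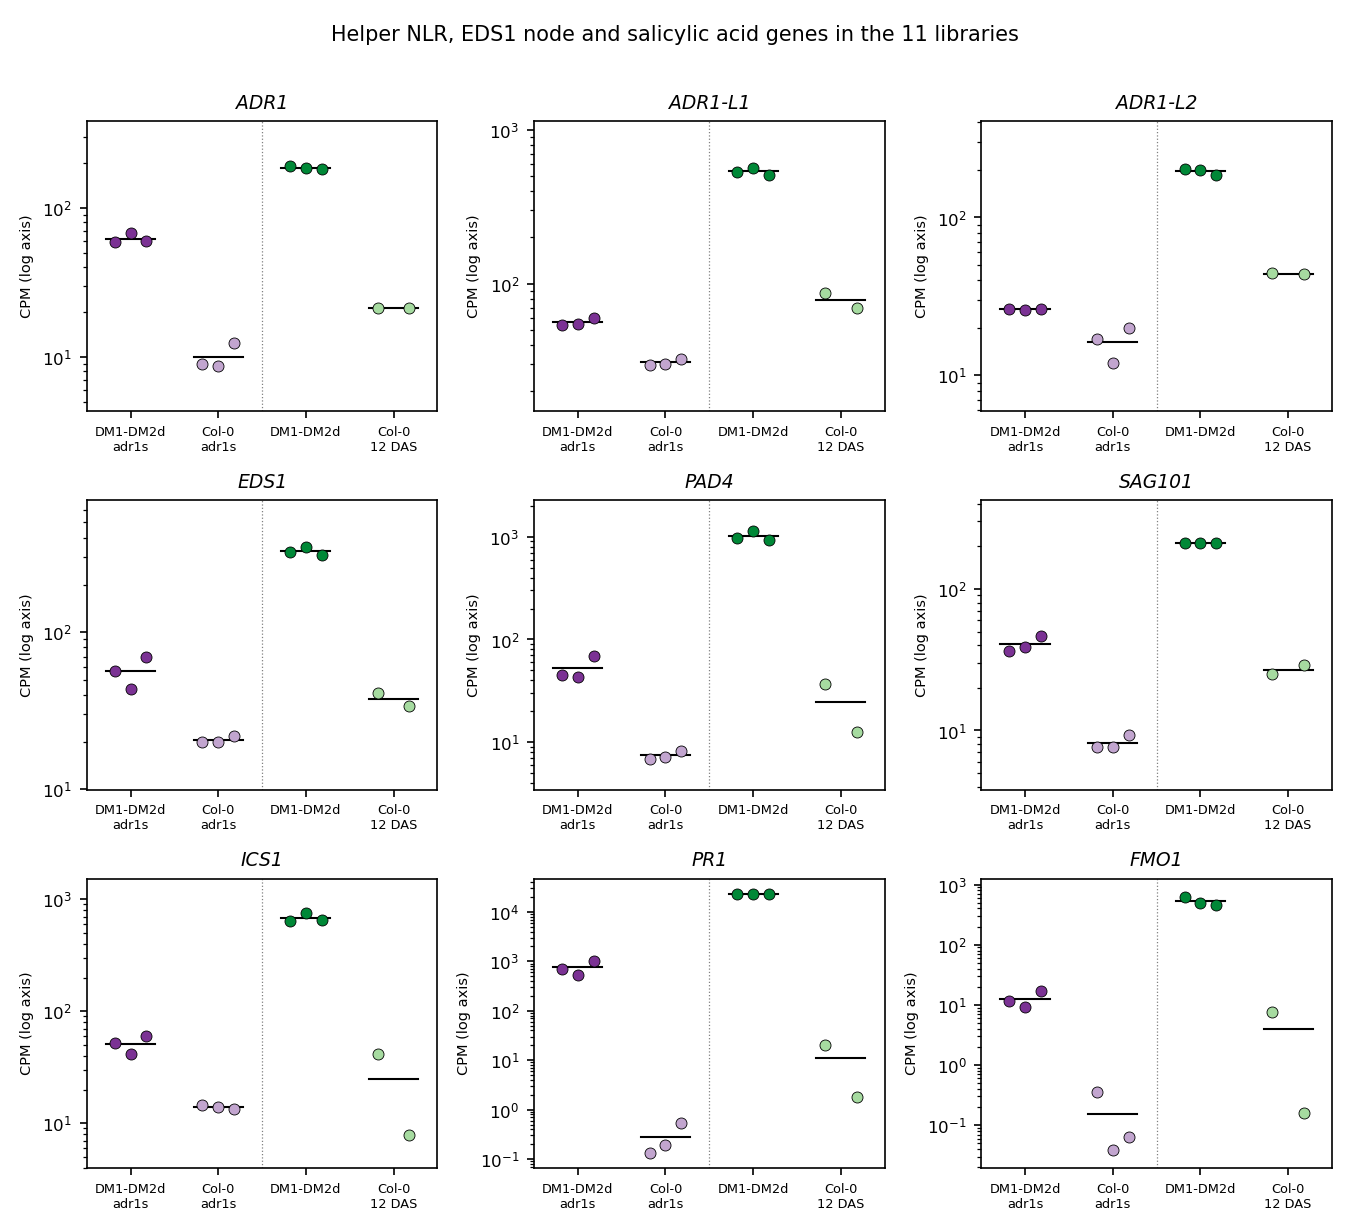
CPM per library on log axes for 9 helper, EDS1 node and salicylic acid genes, with groups from left to right DM1-DM2d adr1s, Col-0 adr1s, DM1-DM2d and Col-0 12 DAS; points are libraries and black lines means. PR1 stands at 537 to 1007 CPM in DM1-DM2d adr1s and at 22676 to 23370 CPM in DM1-DM2d, and the Col-0 12 DAS libraries lie far apart for PAD4, ICS1, PR1 and FMO1.

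The Col-0 relatives of the introduced receptors were also followed, although the counts do not separate them from the transgenes. Among the relatives of DM2d in the RPP1 cluster, AT3G44630 was at 64.8, 49.5 and 56.9 CPM in DM1-DM2d adr1s, against 67.8, 59.4 and 63.9 CPM in Col-0 adr1s, and at 261, 275 and 250 CPM in DM1-DM2d, against 68.6 and 83.5 CPM in Col-0 12 DAS. The groups overlapped in adr1s and were separated with ADR1 intact, and the difference was 1.94 ± 0.23 (adjusted p = 1.01e-06). RPP1, AT3G44670 and AT3G44400 had differences of 1.48 ± 0.14, 1.42 ± 0.13 and 1.25 ± 0.19. Of the relatives of DM1, AT5G41740 had a difference of 1.83 ± 0.29 (adjusted p = 3.07e-05). Its neighbour AT5G41750 was at 54.2, 47.5 and 61.3 CPM in DM1-DM2d adr1s, against 1.09, 0.98 and 1.36 CPM in Col-0 adr1s, and at 1264, 1346 and 1267 CPM in DM1-DM2d, against 53.2 and 32.7 CPM in Col-0 12 DAS. It was high in every DM1-DM2d library of both backgrounds, with effects of 5.56 ± 0.48 and 4.91 ± 0.53 and no called difference (-0.65 ± 0.60, adjusted p = 0.38; -0.28 without Col-0 12 DAS replicate 1 and -1.01 without replicate 2). Over TIR-type NLR genes as annotated, 36 of 97 tested had a positive and 13 a negative difference (median 0.34; 0.38 with genes near 0 counts held at their bound), and 32 and 8 without Col-0 12 DAS replicate 1 (median 0.52). Those of the coiled-coil type gave 5 positive and 8 negative of 24. The shares of all genes were 26% positive and 32.5% negative.

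Of 10 salicylic acid synthesis genes and their activators, DM1-DM2d raised 8 in adr1s (23.9% of all genes) and 9 with ADR1 intact (36.6% of all genes). The difference was positive for 3 and negative for none, beside 26% and 32.5% of all genes. ICS1, the isochorismate synthase that makes most stress-induced salicylic acid, was at 52.3, 41.8 and 60 CPM in DM1-DM2d adr1s, against 14.6, 14 and 13.5 CPM in Col-0 adr1s, and at 642, 762 and 652 CPM in DM1-DM2d, against 41.9 and 7.93 CPM in Col-0 12 DAS. Its difference was 2.91 ± 0.67 (adjusted p = 0.00157), or 4.54 without Col-0 12 DAS replicate 1 and 2.11 without replicate 2. EPS1, which acts on the product of the ICS1 branch, fell by 0.46 in adr1s and rose by 1.72 with ADR1 intact, with a difference of 2.18 ± 0.23 (adjusted p = 2.51e-07). EDS5, the transporter of isochorismate, had a difference of 1.75 ± 0.70 (adjusted p = 0.0416) that lost its call without most single libraries, and was 3.08 without Col-0 12 DAS replicate 1 and 1.02 without replicate 2. SARD1, a transcription factor that activates ICS1, was at 39.3, 36.9 and 61.9 CPM in DM1-DM2d adr1s, against 0.212, 0.173 and 0.357 CPM in Col-0 adr1s, and at 1284, 1384 and 1159 CPM in DM1-DM2d, against 22 and 7.51 CPM in Col-0 12 DAS. Its effects were 7.51 ± 0.63 in adr1s and 6.43 ± 0.65 with ADR1 intact, and the difference of -1.08 ± 0.80 was not called (adjusted p = 0.268; -0.12 without Col-0 12 DAS replicate 1 and -1.70 without replicate 2). Without Col-0 12 DAS replicate 1 the list had 5 positive calls, and without replicate 2 it had 2.

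Perception genes showed the split within 1 pathway. NPR3, a salicylic acid receptor that limits the response, was at 45.3, 43.2 and 46.8 CPM in DM1-DM2d adr1s, against 16.7, 18.2 and 19.4 CPM in Col-0 adr1s, and at 610, 602 and 589 CPM in DM1-DM2d, against 32.6 and 25.1 CPM in Col-0 12 DAS. No group overlapped another, and the difference was 3.06 ± 0.19 (adjusted p = 3.98e-10; 3.25 and 2.83 without Col-0 12 DAS replicate 1 and replicate 2). NPR4, its close relative, had a difference of 1.49 ± 0.20, and NPR1, the receptor that activates the response, of 1.00 ± 0.18 (adjusted p = 9.68e-05; 1.03 and 0.91 without those replicates). PR1, the standard output of salicylic acid signalling, was at 709, 537 and 1007 CPM in DM1-DM2d adr1s, against 0.13, 0.192 and 0.535 CPM in Col-0 adr1s, and at 22874, 23370 and 22676 CPM in DM1-DM2d, against 19.9 and 1.78 CPM in Col-0 12 DAS. The log2 effect of DM1-DM2d on PR1 was 11.33 ± 0.92 in adr1s and 11.05 ± 1.05 with ADR1 intact. The difference of -0.28 ± 1.01 was not called (adjusted p = 0.846), and took the values 2.30 without Col-0 12 DAS replicate 1 and -1.21 without replicate 2.

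PR2, a beta-1,3-glucanase, behaved in the opposite way to the receptors. It was at 143, 150 and 282 CPM in DM1-DM2d adr1s, against 0.326, 0.403 and 1 CPM in Col-0 adr1s, and at 116, 187 and 188 CPM in DM1-DM2d, against 21.4 and 2.42 CPM in Col-0 12 DAS. The groups of each pair were separate. The difference was -4.58 ± 1.28 (adjusted p = 0.00613), or -2.29 without Col-0 12 DAS replicate 1, where it was no longer called, and -5.47 without replicate 2. PR5, the thaumatin-like pathogenesis protein, had a difference of 1.45 ± 0.39 (adjusted p = 0.00461). Over the 14 perception and response genes the difference was positive for 7 and negative for 2 (9 and 1 without Col-0 12 DAS replicate 1, 4 and 2 without replicate 2). Of all genes, 26% had a positive and 32.5% a negative difference. The median difference of the 14 genes was 0.54, or 0.61 with genes near 0 counts held at their bound. That median was 1.58 without Col-0 12 DAS replicate 1 and -0.04 without replicate 2. Their median effects were 3.95 in adr1s and 4.19 with ADR1 intact.

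An effect on the log2 scale and a gain in CPM are different quantities, and for several immune genes they gave different pictures. The mean gain of PR1 over its Col-0 group was 751 CPM in adr1s and 22962 CPM with ADR1 intact, although its log2 difference was not called. SARD1 gained 45.8 CPM in adr1s and 1261 CPM with ADR1 intact, and FMO1 gained 12.4 and 519 CPM. PAD4 gained 44.7 and 984 CPM, EDS1 35.9 and 289 CPM, and PR2 191 and 151 CPM. Of the 1732 genes that rose in both backgrounds without a called log2 difference, 1442 (83.3%) gained more CPM with ADR1 intact. These gains carry no test, and for genes such as SARD1 the Col-0 adr1s level was also below that of Col-0 12 DAS.

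The N-hydroxypipecolic acid pathway makes the mobile signal of systemic resistance. FMO1, its last enzyme, was at 11.5, 9.32 and 16.8 CPM in DM1-DM2d adr1s, against 0.359, 0.0384 and 0.0648 CPM in Col-0 adr1s, and at 622, 499 and 448 CPM in DM1-DM2d, against 7.64 and 0.159 CPM in Col-0 12 DAS. The 2 libraries of Col-0 12 DAS differed widely, and the difference of 0.78 ± 1.70 was not called (adjusted p = 0.734; 5.37 without replicate 1, where it was called, and -0.24 without replicate 2). AZI1, a lipid-transfer-like protein required for systemic priming, was at 521, 598 and 610 CPM in DM1-DM2d adr1s, against 40.3, 78 and 97.7 CPM in Col-0 adr1s, and at 150, 147 and 125 CPM in DM1-DM2d, against 112 and 132 CPM in Col-0 12 DAS. Its libraries were separated in adr1s and overlapped with ADR1 intact, and the difference was -2.80 ± 0.41 (adjusted p = 2.09e-05). EARLI1, its neighbour and relative on chromosome 4, had a difference of -4.32 ± 0.60 (adjusted p = 1.52e-05). The list of this pathway and of systemic resistance had 1 positive and 3 negative differences among 7 genes, beside 26% and 32.5% of all genes. BSMT1 was 1 of the negative calls. It had 6, 2 and 2 counts in DM1-DM2d adr1s, Col-0 adr1s and DM1-DM2d, and 4.24 and 0.0955 CPM in Col-0 12 DAS. Its result changed under DESeq2 and under the replicate block. The median difference of the list was -2.80, or -0.90 with genes near 0 counts held at their bound. Without Col-0 12 DAS replicate 1 that median was 1.12, and without replicate 2 it was -2.73.

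Pattern-triggered immunity genes had positive differences at 12 of 25 and negative at 2 (12 and none without Col-0 12 DAS replicate 2), beside 26% and 32.5% of all genes. MPK6, a mitogen-activated protein kinase of the immune cascade, was at 45.4, 40.3 and 41.8 CPM in DM1-DM2d adr1s, against 37.7, 40 and 40.7 CPM in Col-0 adr1s, and at 75.7, 75.3 and 71.7 CPM in DM1-DM2d, against 33.4 and 29.4 CPM in Col-0 12 DAS. It was not called in adr1s, where the groups overlapped, and its difference was 1.14 ± 0.11 (adjusted p = 9.23e-08). MKK5, a kinase above MPK6, had a difference of 1.54 ± 0.17, the chitin receptor kinase CERK1 of 1.22 ± 0.17, and the co-receptor BKK1 of 1.16 ± 0.17. The negative calls, BIK1 (-0.52 ± 0.19) and WRKY40 (-1.96 ± 0.75), were lost without Col-0 12 DAS replicate 2 (-0.27 and -1.29) and without other single libraries. WRKY factors, the main transcription factor family of plant immunity, had 18 positive and 11 negative differences among 65 tested (17 and 7 without Col-0 12 DAS replicate 2), beside 26% and 32.5% of all genes.

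Most cysteine-rich receptor-like kinases (CRKs) were raised by DM1-DM2d in both backgrounds. DM1-DM2d raised 11 of 13 in adr1s (23.9% of all genes) and 12 of 13 with ADR1 intact (36.6% of all genes), with medians of 3.27 and 4.13, while the difference was called for 2 in each direction (26% and 32.5% of all genes). The median difference was -0.27, and was 1.12 without Col-0 12 DAS replicate 1 and -0.97 without replicate 2. CRK11 was at 22.9, 20.9 and 25.9 CPM in DM1-DM2d adr1s, against 11, 8.85 and 9.42 CPM in Col-0 adr1s, and at 104, 96.4 and 92 CPM in DM1-DM2d, against 33.7 and 46.9 CPM in Col-0 12 DAS. All 4 groups were separate, and the difference was 0.02 ± 0.31 (adjusted p = 0.975; -0.21 without Col-0 12 DAS replicate 1 and 0.23 without replicate 2). CRK18 had a positive difference of 1.23 ± 0.21 (adjusted p = 7.1e-05), and CRK14 a negative one of -1.37 ± 0.32 (adjusted p = 0.00153).

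The 250 bases before the annotated gene start were searched for the W-box, the letters bound by WRKY factors (TTGACC or TTGACT, either strand). A W-box lay in 28.4% of the 23117 windows of tested nuclear genes, in 69.2% of the 13 CRK windows and in 52% of the 25 windows of pattern-triggered immunity genes. Other immune lists lay on both sides of the share of all windows. A W-box lay in 22.2% of the 9 windows of the helper and EDS1 node and 16.7% of the 6 of DM relatives. It lay in 14.3% of the 14 of salicylic acid perception and 10% of the 10 of salicylic acid synthesis. It lay in 75% of the 4 of RPW8 homologs, 50% of the 24 of coiled-coil NLR genes and 44.3% of the 97 of TIR-type NLR genes. It lay in 40% of the 15 of camalexin and indole genes and 36.9% of the 65 of WRKY factors. It lay in 35.9% of the windows of genes that rose in both backgrounds without a called difference, in 34.5% of those that rose in both and more with ADR1 intact, in 30.2% of those that rose only with ADR1 intact, and in 21.4% of those that fell in both and more with ADR1 intact. CRK11 rose in both backgrounds without a called difference, and RGLG2 rose only with ADR1 intact. Most windows of either class lacked a W-box, and those of CRK11 and RGLG2 are shown as examples that hold it. Sequences are from RefSeq, TAIR10.1, minus strand, 5′ to 3′, at chr4:12143859-12144108 for CRK11 and chr5:4651443-4651692 for RGLG2; capitals mark W-boxes on either strand, and adjoining matches run together.
CRK11: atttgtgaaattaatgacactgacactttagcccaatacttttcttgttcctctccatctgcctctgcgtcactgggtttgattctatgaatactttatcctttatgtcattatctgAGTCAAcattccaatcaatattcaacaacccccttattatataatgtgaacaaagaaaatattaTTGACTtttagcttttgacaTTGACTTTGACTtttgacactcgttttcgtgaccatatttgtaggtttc
RGLG2: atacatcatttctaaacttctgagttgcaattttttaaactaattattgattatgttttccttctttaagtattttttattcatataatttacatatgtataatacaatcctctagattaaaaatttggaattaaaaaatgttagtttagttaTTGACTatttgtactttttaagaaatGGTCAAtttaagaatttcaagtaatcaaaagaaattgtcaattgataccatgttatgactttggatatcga
The matches begin 133, 69, 49 and 43 bases before the CRK11 start, and 97 and 71 bases before the RGLG2 start. A match describes the letters and not a bound site.

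Among camalexin and indole genes, DM1-DM2d raised 13 of 15 in adr1s and 8 of 15 with ADR1 intact, beside 23.9% and 36.6% of all genes. PEN3, a transporter that exports indole defence compounds, was at 1179, 933 and 1251 CPM in DM1-DM2d adr1s, against 284, 247 and 282 CPM in Col-0 adr1s, and at 1451, 1139 and 938 CPM in DM1-DM2d, against 946 and 1038 CPM in Col-0 12 DAS. The groups were separate in adr1s and overlapped with ADR1 intact, and the difference was -1.80 ± 0.32 (adjusted p = 0.000119). PEN2, the myrosinase that activates indole glucosinolates, and CYP83B1, an enzyme of their synthesis, had differences of -1.66 ± 0.22 and -1.29 ± 0.19. MYB34, a transcription factor of indole glucosinolate synthesis, was at 10.9, 18 and 12.9 CPM in DM1-DM2d adr1s, against 24.6, 23.6 and 22.1 CPM in Col-0 adr1s, and at 0.36, 0.702 and 0.8 CPM in DM1-DM2d, against 27.4 and 21.7 CPM in Col-0 12 DAS. It was lowest in DM1-DM2d, with a difference of -4.55 ± 0.38 (adjusted p = 2.67e-08). CYP79B2, which makes the shared indole precursor, went the other way, with a difference of 1.70 ± 0.36. Of 15 genes in the list, 7 had a negative and 1 a positive difference (6 and 2 without Col-0 12 DAS replicate 1, 9 and 1 without replicate 2), beside 32.5% and 26% of all genes.

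Several jasmonate synthesis genes moved in opposite directions in the 2 backgrounds. LOX2, a chloroplast lipoxygenase at the start of the pathway, was at 916, 1260 and 1001 CPM in DM1-DM2d adr1s, against 204, 140 and 217 CPM in Col-0 adr1s, and at 157, 134 and 137 CPM in DM1-DM2d, against 564 and 408 CPM in Col-0 12 DAS. DM1-DM2d thus raised LOX2 in adr1s (2.50 ± 0.23) and lowered it with ADR1 intact (-1.77 ± 0.24), a difference of -4.27 ± 0.33 (adjusted p = 1.02e-08). The cyclase AOC2 had the same pattern, with effects of 1.98 ± 0.28 and -2.85 ± 0.31 and a difference of -4.82 ± 0.42 (adjusted p = 6.66e-08). Its tandem copy AOC1 was at 53.3, 55.5 and 57.4 CPM in DM1-DM2d adr1s, against 38.6, 28.7 and 38.8 CPM in Col-0 adr1s, and at 0.262, 0.468 and 0.457 CPM in DM1-DM2d, against 46 and 44.4 CPM in Col-0 12 DAS. Its difference was -7.48 ± 0.37 (adjusted p = 7.59e-11). AOS, the allene oxide synthase between LOX2 and the cyclases, had no called effect in adr1s (0.00 ± 0.09) and fell by 2.92 with ADR1 intact. Ethylene-linked chitinase PR3 had a positive difference of 1.81 ± 0.44. The jasmonate and ethylene list held 12 negative and 6 positive differences among 26 genes (13 and 3 under upper-quartile scaling), beside 32.5% and 26% of all genes. Its median difference was -0.77, and was -0.83 without Col-0 12 DAS replicate 2.

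Cold and abscisic acid genes followed the jasmonate genes in sign. COR15A, which encodes a protein that protects chloroplast membranes in the cold, was at 6.49, 28.1 and 8.47 CPM in DM1-DM2d adr1s, against 2.66, 1.46 and 2.11 CPM in Col-0 adr1s, and at 0.393, 0.375 and 0.32 CPM in DM1-DM2d, against 49 and 16 CPM in Col-0 12 DAS. Both pairs were separated in opposite directions, and the difference was -9.26 ± 1.38 (adjusted p = 2.8e-05), a result that changed under DESeq2. With single libraries left out the difference of COR15A was -9.90 to -8.26. COR15B (-9.05 ± 1.15), RD29A (-6.39 ± 0.84) and the dehydrin COR47 (-2.41 ± 0.35) were also negative. In all, 7 of 14 genes of the list had a negative difference and none a positive one, beside 32.5% and 26% of all genes. The median effects were 0.92 in adr1s and -2.37 with ADR1 intact.

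Several clock genes had called differences in both directions, and their levels in the 2 Col-0 groups, which are of different batches, were far apart. LHY, a morning-phased repressor, was at 53.5, 38.9 and 24.5 CPM in DM1-DM2d adr1s, against 194, 157 and 185 CPM in Col-0 adr1s, and at 6.99, 8.32 and 12.4 CPM in DM1-DM2d, against 3.38 and 1.27 CPM in Col-0 12 DAS. DM1-DM2d lowered it in adr1s and raised it with ADR1 intact, with a difference of 4.18 ± 0.78 (adjusted p = 0.000249). RVE8, a morning-phased activator, had a difference of 3.86 ± 0.46. TOC1, an evening-phased repressor, was at 40.8, 43.9 and 66 CPM in DM1-DM2d adr1s, against 19.9, 18.7 and 17.4 CPM in Col-0 adr1s, and at 198, 215 and 178 CPM in DM1-DM2d, against 233 and 238 CPM in Col-0 12 DAS. Its difference was -1.69 ± 0.23 (adjusted p = 8.11e-06), and GI and LUX, also evening-phased, had differences of -2.60 ± 0.34 and -1.83 ± 0.25. Of 12 clock genes, 8 had a negative and 3 a positive difference, beside 32.5% and 26% of all genes. The hour of harvest is not given in the labels, and its part in these values was not tested.

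COR27, an evening-phased gene that represses clock and cold genes, had 1 of the larger negative differences. It was at 3.99, 3.97 and 11.1 CPM in DM1-DM2d adr1s, against 0.13, 0.0384 and 0 CPM in Col-0 adr1s, and at 65.1, 57.3 and 45.1 CPM in DM1-DM2d, against 81.1 and 81.3 CPM in Col-0 12 DAS. DM1-DM2d libraries were above Col-0 in adr1s and below it with ADR1 intact, and the difference was -7.30 ± 0.84 (adjusted p = 1.92e-06). PDC2, a pyruvate decarboxylase, was at 107, 83.8 and 106 CPM in DM1-DM2d adr1s, against 13.5, 11.4 and 12.8 CPM in Col-0 adr1s, and at 120, 110 and 101 CPM in DM1-DM2d, against 142 and 121 CPM in Col-0 12 DAS. It was higher only in adr1s, with a difference of -3.23 ± 0.26 (adjusted p = 1.76e-08). EARLI1 was at 1072, 1319 and 1221 CPM in DM1-DM2d adr1s, against 25, 61 and 103 CPM in Col-0 adr1s, and at 330, 245 and 244 CPM in DM1-DM2d, against 275 and 294 CPM in Col-0 12 DAS.

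The evening element AAATATCT, read on either strand, is bound by RVE8 and by LHY and its relatives. It lay in 4.82% of the 23117 windows, in 11.1% of the 678 windows of genes lower with ADR1 intact and higher in adr1s, and in 10.1% of the 526 windows of genes higher only in adr1s. It lay in 3.8% of the 3003 windows of genes higher only with ADR1 intact, in 42.9% of the 14 windows of cold and abscisic acid genes and in 41.7% of the 12 clock windows. PDC2 and EARLI1 were both higher in DM1-DM2d adr1s than in Col-0 adr1s and were not called higher in DM1-DM2d than in Col-0 12 DAS. Most windows of such genes lacked the element, and those of PDC2 and EARLI1 are shown as examples that hold it. They lie at chr5:22312833-22313082 and chr4:7406995-7407244 in TAIR10.1, both on the minus strand, and are from RefSeq; capitals mark the element on either strand.
PDC2: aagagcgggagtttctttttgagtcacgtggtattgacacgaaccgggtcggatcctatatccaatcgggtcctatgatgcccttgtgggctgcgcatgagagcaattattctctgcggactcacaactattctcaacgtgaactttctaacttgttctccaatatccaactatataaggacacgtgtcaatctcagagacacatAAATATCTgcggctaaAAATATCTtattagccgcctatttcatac
EARLI1: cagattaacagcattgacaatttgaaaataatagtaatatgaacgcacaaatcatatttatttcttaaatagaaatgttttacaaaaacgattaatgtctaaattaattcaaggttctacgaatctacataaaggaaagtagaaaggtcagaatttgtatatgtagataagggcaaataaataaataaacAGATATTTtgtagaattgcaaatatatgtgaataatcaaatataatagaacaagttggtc
The element begins 45 and 29 bases before the gene start in PDC2 and 60 bases before it in EARLI1. These matches are a description of the letters and carry no test.

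**Figure D3:**
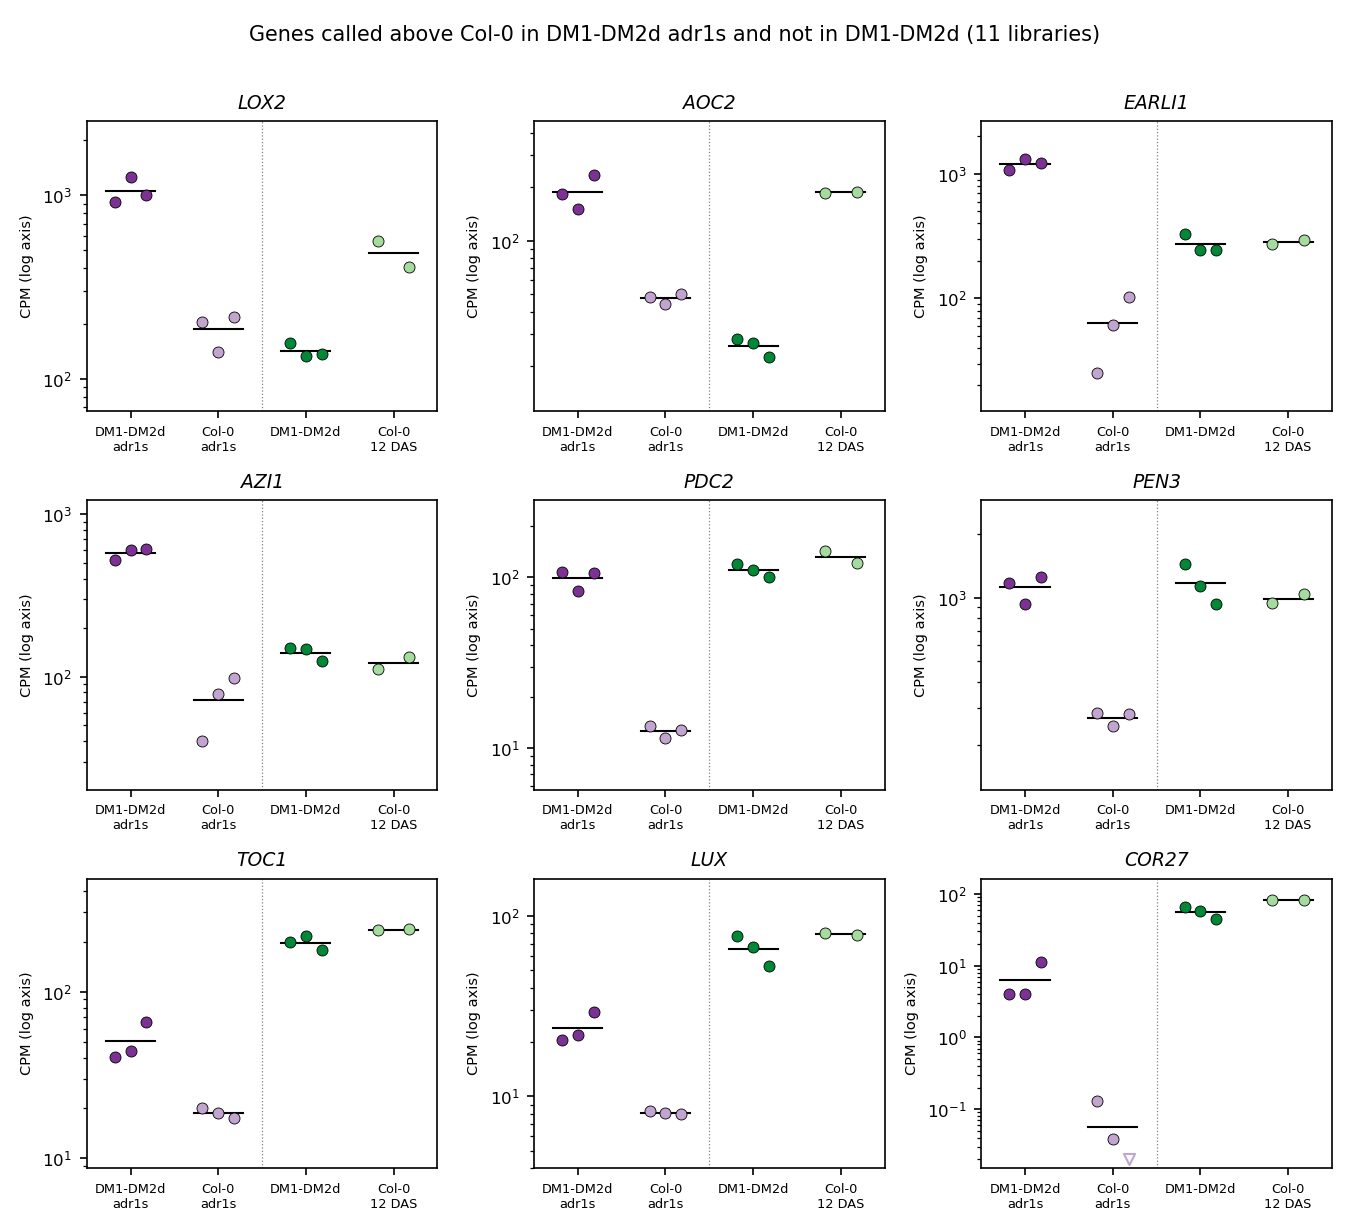
CPM per library on log axes for 9 genes called higher than Col-0 in DM1-DM2d adr1s and not in DM1-DM2d, with groups from left to right DM1-DM2d adr1s, Col-0 adr1s, DM1-DM2d and Col-0 12 DAS; points are libraries, black lines are means, and an open triangle at the bottom of the COR27 panel is a library with 0 counts. LOX2 is at 916 to 1260 CPM in DM1-DM2d adr1s and at 134 to 157 CPM in DM1-DM2d.

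**Figure D4:**
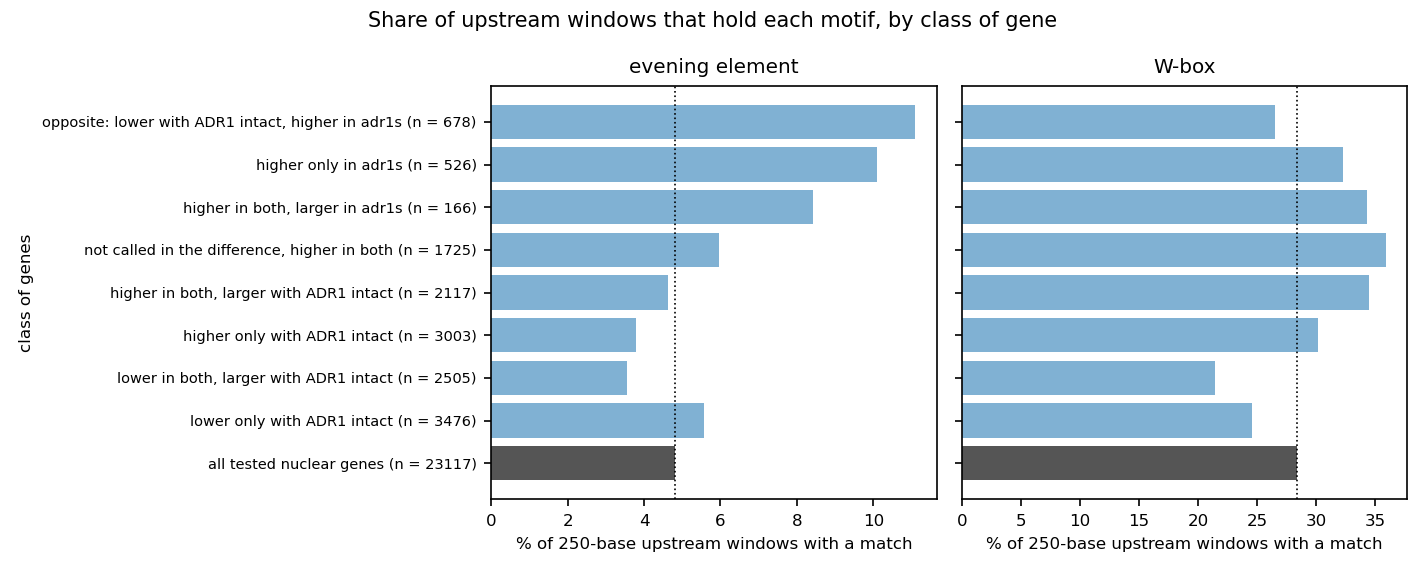
Share of windows of 250 bases before the gene start that hold an evening element (left) or a W-box (right), for classes of genes by their DM1-DM2d effects and for all tested nuclear genes (dark bars, dotted lines). The evening element is at 11.1% in genes lower with ADR1 intact and higher in adr1s, against 4.82% of all windows, and the W-box at 35.9% in genes higher in both backgrounds without a called difference, against 28.4% of all windows.

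Photosynthesis genes of the nucleus had negative median effects in both backgrounds, further below 0 with ADR1 intact. All 18 light-harvesting genes tested, all 27 photosystem and electron transport genes and all 20 Calvin cycle and photorespiration genes had a negative difference. Of all genes, 32.5% did. Median effects of DM1-DM2d were -1.06 in adr1s and -5.33 with ADR1 intact for light harvesting, -0.77 and -4.08 for the photosystems, and -0.99 and -3.87 for the Calvin cycle. LHCB5, an antenna protein of photosystem II, was at 3240, 2566 and 2800 CPM in DM1-DM2d adr1s, against 5577, 5165 and 5094 CPM in Col-0 adr1s, and at 98.8, 79.7 and 71.3 CPM in DM1-DM2d, against 3171 and 3107 CPM in Col-0 12 DAS. The groups of each pair were separate, and the difference was -4.36 ± 0.24 (adjusted p = 1.55e-10). PRK, the phosphoribulokinase that regenerates the substrate of carbon fixation, was at 997, 748 and 795 CPM in DM1-DM2d adr1s, against 1947, 1743 and 1839 CPM in Col-0 adr1s, and at 54.3, 51.5 and 62 CPM in DM1-DM2d, against 1062 and 1099 CPM in Col-0 12 DAS. Its difference was -3.15 ± 0.17 (adjusted p = 8.62e-11). PnsB3, a subunit of the chloroplast NDH complex, had a difference of -5.09 ± 0.16, with an adjusted p of 1.34e-12.

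Chlorophyll synthesis fell likewise, with 14 negative differences and 1 positive among 17 genes. Over all genes, 32.5% had a negative and 26% a positive difference. FLU, a negative regulator of early chlorophyll synthesis, was at 77.7, 81.2 and 84.8 CPM in DM1-DM2d adr1s, against 132, 129 and 128 CPM in Col-0 adr1s, and at 11.2, 11.9 and 12.6 CPM in DM1-DM2d, against 114 and 120 CPM in Col-0 12 DAS, a difference of -2.63 ± 0.10 (adjusted p = 4.43e-12). CH1, which makes chlorophyll b, was lowered in both backgrounds, by 1.30 in adr1s and by 1.31 with ADR1 intact, with a difference of -0.01 ± 0.19 that was not called. SGR1, the magnesium dechelatase that starts chlorophyll breakdown, was at 24, 25 and 21 CPM in DM1-DM2d adr1s, against 20, 18.5 and 20 CPM in Col-0 adr1s, and at 245, 260 and 268 CPM in DM1-DM2d, against 14.6 and 9.84 CPM in Col-0 12 DAS. It was not called in adr1s, and the difference was 4.14 ± 0.34 (adjusted p = 2.69e-08). PPH and PAO, the next enzymes of breakdown, had differences of 2.27 ± 0.16 and 1.48 ± 0.15. NAP, a senescence transcription factor, was at 5.64, 6.6 and 4.12 CPM in DM1-DM2d adr1s, against 6.02, 3.46 and 3.99 CPM in Col-0 adr1s, and at 112, 139 and 133 CPM in DM1-DM2d, against 2.31 and 1.29 CPM in Col-0 12 DAS, a difference of 5.87 ± 0.99 (adjusted p = 9.43e-05). Of 11 senescence and breakdown genes, 8 had a positive difference and none a negative one (9 without Col-0 12 DAS replicate 1, 6 without replicate 2).

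Cell division and growth genes were lowered mainly with ADR1 intact. The cell cycle list had 25 negative differences and 1 positive among 28 genes, beside 32.5% and 26% of all genes. Its median effects were -0.34 in adr1s and -1.66 with ADR1 intact. CYCB1;2, a mitotic cyclin, was at 12.2, 19.4 and 17.3 CPM in DM1-DM2d adr1s, against 29.1, 22.6 and 23.6 CPM in Col-0 adr1s, and at 2.3, 1.45 and 1.89 CPM in DM1-DM2d, against 27.8 and 24.5 CPM in Col-0 12 DAS. Its difference was -3.17 ± 0.32 (adjusted p = 1.62e-07), and that of CYCD3;1, a cyclin of cell cycle entry, was -2.23 ± 0.22. Among growth transcription factors 12 of 14 had a negative difference and HY5, a light-signalling factor, a positive one (1.60 ± 0.40). GRF3, a growth-regulating factor of leaves, was at 20.7, 22.1 and 22.6 CPM in DM1-DM2d adr1s, against 17, 16.5 and 15.7 CPM in Col-0 adr1s, and at 2.12, 1.62 and 1.94 CPM in DM1-DM2d, against 21.4 and 19.6 CPM in Col-0 12 DAS. Its difference was -3.85 ± 0.33 (adjusted p = 2.74e-08), and those of ANT, an organ size regulator, and PIF4, a factor of elongation growth, were -4.58 ± 0.47 and -3.89 ± 0.34.

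Hormone and wall genes followed, with list counts to be read beside 32.5% negative and 26% positive over all genes. EXPA5, a cell wall loosening protein, was at 15.4, 15.3 and 13.9 CPM in DM1-DM2d adr1s, against 32, 28.3 and 27.3 CPM in Col-0 adr1s, and at 0.153, 0.129 and 0.103 CPM in DM1-DM2d, against 30 and 38 CPM in Col-0 12 DAS. Its difference was -7.06 ± 0.37 (adjusted p = 8.59e-11). Of 17 expansin and xyloglucan genes 12 were negative and 5 positive; the xyloglucan enzymes XTR6 (5.16 ± 0.63) and XTH24 (3.63 ± 0.46) rose in both backgrounds and more with ADR1 intact. PIN7, an auxin efflux carrier, had a difference of -4.45 ± 0.42, and the auxin list had 16 negative and 2 positive of 25. GASA4, a gibberellin-regulated peptide, was at 108, 119 and 110 CPM in DM1-DM2d adr1s, against 76.9, 70.1 and 69.7 CPM in Col-0 adr1s, and at 8.96, 6.82 and 8.59 CPM in DM1-DM2d, against 125 and 118 CPM in Col-0 12 DAS. DM1-DM2d raised it in adr1s and lowered it with ADR1 intact, a difference of -4.54 ± 0.15 (adjusted p = 1.38e-12). SPCH, which starts the stomatal lineage, had a difference of -5.43 ± 0.42, and 9 of 10 genes of that lineage were negative. Of 27 aquaporins tested 17 were negative and 1 positive, and of 11 aliphatic glucosinolate genes 10 were negative, MYB28, their main regulator, at -3.61 ± 0.24. The shoot and vascular marker sums given above were also lower in DM1-DM2d. Summed epidermis and trichome markers (5 genes) were at 624 to 699 CPM in DM1-DM2d adr1s, against 765 to 849 CPM in Col-0 adr1s, and at 113 to 126 CPM in DM1-DM2d, against 647 to 908 CPM in Col-0 12 DAS. Summed guard cell markers (3 genes) were at 27.8 to 34.7 CPM in DM1-DM2d adr1s, against 37.5 to 46.3 CPM in Col-0 adr1s, and at 53.8 to 62 CPM in DM1-DM2d, against 44.9 to 60.8 CPM in Col-0 12 DAS. Summed meristem and flower markers (6 genes) went the other way, at 33.4 to 40.3 CPM in DM1-DM2d adr1s, against 19.1 to 20.1 CPM in Col-0 adr1s. With ADR1 intact they were at 16 to 18 CPM in DM1-DM2d, against 6.47 to 7.48 CPM in Col-0 12 DAS. In DM1-DM2d, WUS, CLV3, LFY and AP1 had 0 counts. KNAT1 gained 14.2 CPM in adr1s and 11.4 CPM with ADR1 intact, where STM fell by 1.21. The part of these cell types and organs in the results was not tested.

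**Figure D5:**
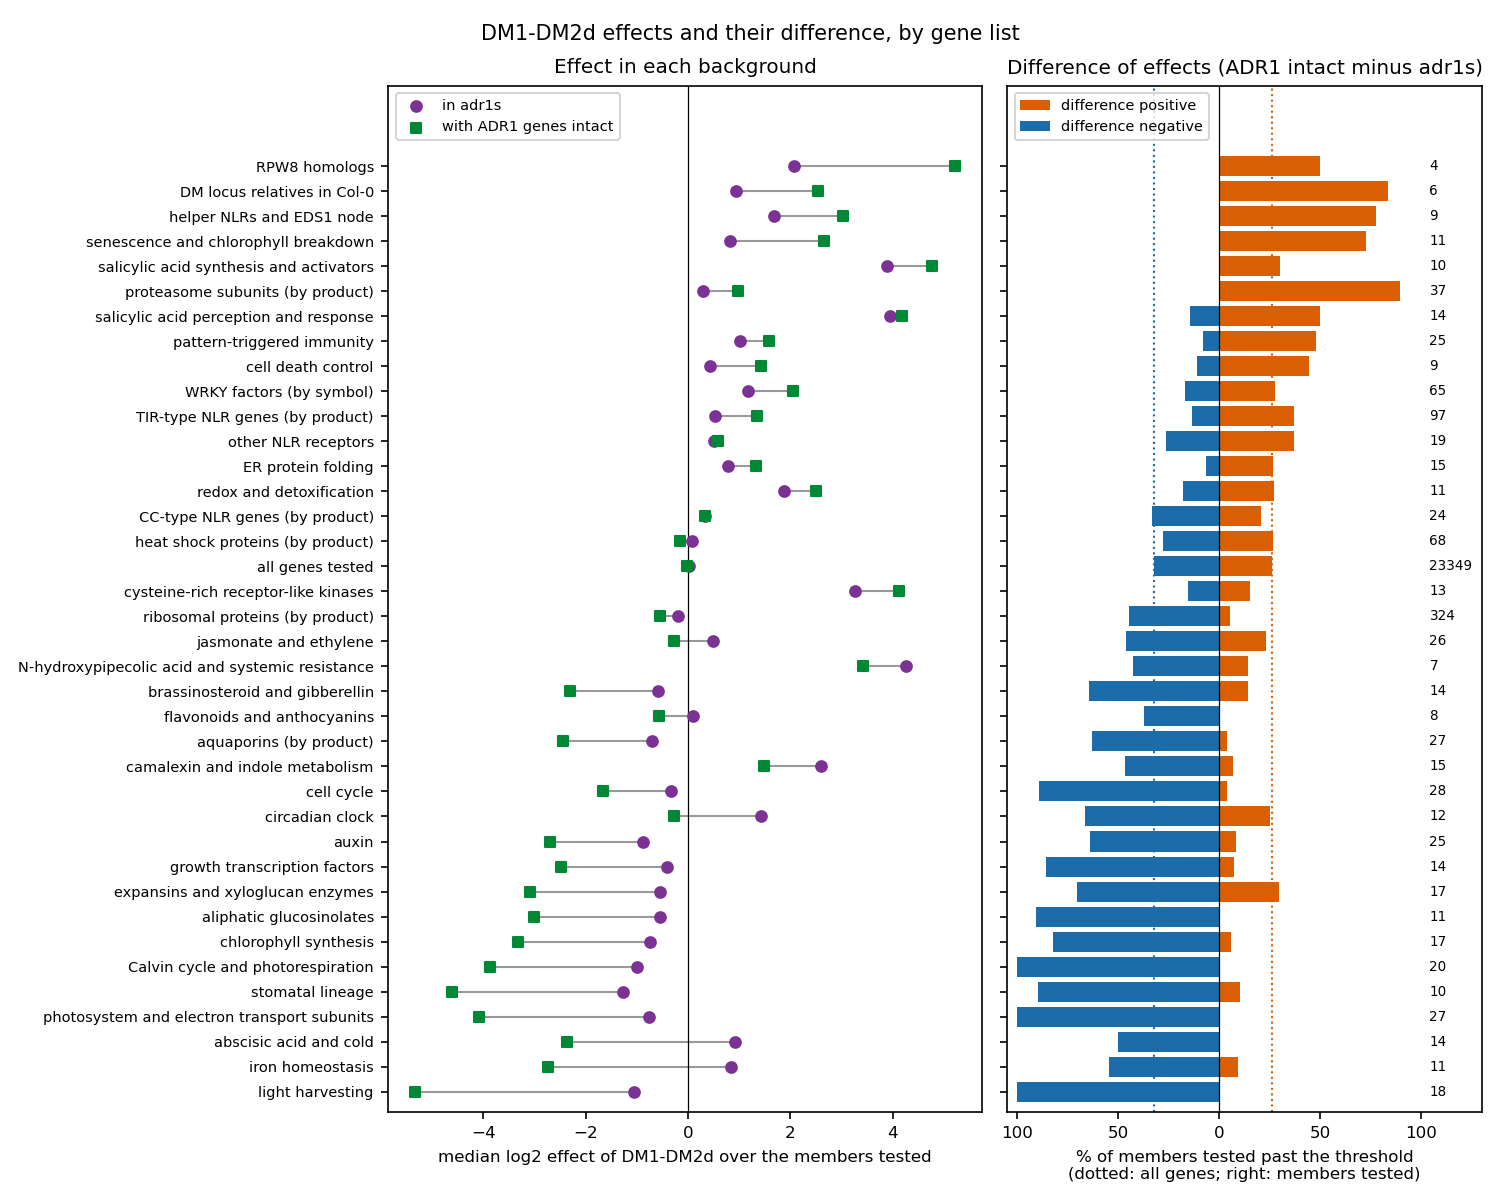
Left, median log2 effect of DM1-DM2d over the tested members of each gene list, in adr1s (circles) and with the ADR1 genes intact (squares), with genes near 0 counts held at their bound; right, share of members with a positive or a negative called difference, with dotted lines at 26% and 32.5% for all genes and the number of members tested at the right. Light harvesting has medians of -1.06 in adr1s and -5.33 with ADR1 intact, with all 18 differences negative.

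Proteasome genes rose more with ADR1 intact, and cell death control genes were mixed. Over all genes, 26% had a positive and 32.5% a negative difference. The proteasome had a positive difference at 33 of 37 subunit genes and a negative one at none, with median effects of 0.30 in adr1s and 0.97 with ADR1 intact (27 positive and 2 negative under upper-quartile scaling). RPN13, a ubiquitin receptor of the proteasome, was at 27.5, 29.4 and 32.9 CPM in DM1-DM2d adr1s, against 25.9, 27.5 and 28.5 CPM in Col-0 adr1s, and at 102, 105 and 98.9 CPM in DM1-DM2d, against 27.6 and 28.3 CPM in Col-0 12 DAS. The groups overlapped in adr1s and not with ADR1 intact, and the difference was 1.73 ± 0.12 (adjusted p = 1.12e-09). Ribosomal protein genes had 145 negative and 17 positive differences among 324 (225 and 9 under upper-quartile scaling). LSD1, a negative regulator of cell death, was at 17.6, 19.8 and 18.6 CPM in DM1-DM2d adr1s, against 19.1, 20.3 and 21.6 CPM in Col-0 adr1s, and at 67.1, 63.9 and 64 CPM in DM1-DM2d, against 15.4 and 16.1 CPM in Col-0 12 DAS, a difference of 2.17 ± 0.11 (adjusted p = 7.79e-11). The cell death control list had 4 positive and 1 negative difference among 9 genes. CNGC2, a calcium channel whose loss causes autoimmunity, went down with ADR1 intact, with a difference of -2.93 ± 0.19. BZIP28, a sensor of stress in the endoplasmic reticulum, had a difference of 1.99 ± 0.11. The folding genes of that compartment had 4 positive and 1 negative of 15 (1 and 4 under upper-quartile scaling), beside 26% and 32.5% of all genes. Without Col-0 12 DAS replicate 2 the positive differences of SDF2 and ERDJ3A moved from 0.53 to 0.34 and from 1.14 to 0.64. That of BZIP28 was then 1.97. The median difference of the folding genes was 0.12, and was 0.21 without Col-0 12 DAS replicate 1 and 0.11 without replicate 2. DM1-DM2d raised 14 of them in adr1s and 12 with ADR1 intact, beside 23.9% and 36.6% of all genes.

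The smallest adjusted p-values among positive differences belonged to WES1, RGLG2, RGLG1, scpl48 and SFP1. WES1, a GH3 enzyme that conjugates auxin to amino acids, was at 25.4, 24.1 and 22.8 CPM in DM1-DM2d adr1s, against 28, 26.8 and 24.1 CPM in Col-0 adr1s, and at 463, 444 and 458 CPM in DM1-DM2d, against 16.5 and 17.7 CPM in Col-0 12 DAS. The difference was 4.86 ± 0.15 (adjusted p = 1.34e-12). RGLG2, a RING-type ubiquitin ligase, was at 26.6, 26.7 and 27.5 CPM in DM1-DM2d adr1s, against 32.2, 28.3 and 28.9 CPM in Col-0 adr1s, and at 371, 381 and 324 CPM in DM1-DM2d, against 30.2 and 26 CPM in Col-0 12 DAS. Its difference was 3.82 ± 0.13, and that of its relative RGLG1 3.54 ± 0.13. In adr1s the libraries of WES1 overlapped between groups and those of RGLG2 and RGLG1 were below Col-0, and with ADR1 intact all 3 genes were above it.

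The widest positive differences included DOX1, BGLU46 and CEP1. DOX1, an alpha-dioxygenase of oxylipin synthesis, was at 2.48, 4.97 and 7.26 CPM in DM1-DM2d adr1s, against 0.375, 2.04 and 0.956 CPM in Col-0 adr1s, and at 4191, 3887 and 3273 CPM in DM1-DM2d, against 5.01 and 1.94 CPM in Col-0 12 DAS, a difference of 7.94 ± 0.92 (adjusted p = 1.98e-06). BGLU46, a beta-glucosidase, was at 11.5, 13.2 and 7.51 CPM in DM1-DM2d adr1s, against 3.99, 4.46 and 4 CPM in Col-0 adr1s, and at 1698, 1599 and 1488 CPM in DM1-DM2d, against 2.11 and 1.89 CPM in Col-0 12 DAS, a difference of 8.26 ± 0.39 (adjusted p = 4.57e-11). CEP1, a cysteine endopeptidase of programmed cell death, had effects of 3.86 ± 0.73 in adr1s and 12.33 ± 0.85 with ADR1 intact. At the other end, AACT1, an acyltransferase, was at 32.4, 22.3 and 21.5 CPM in DM1-DM2d adr1s, against 0.848, 0.576 and 1.91 CPM in Col-0 adr1s, and at 0.0655, 0 and 0.0229 CPM in DM1-DM2d, against 19.8 and 20.3 CPM in Col-0 12 DAS. Its difference was -13.81 ± 1.38 (adjusted p = 3.91e-07), with DM1-DM2d close to the limit of detection.

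AT1G53440, a receptor kinase gene, fell more in adr1s. It was at 0.474, 0.452 and 0.458 CPM in DM1-DM2d adr1s, against 28.6, 30.1 and 29.7 CPM in Col-0 adr1s, and at 24, 21.8 and 24.4 CPM in DM1-DM2d, against 81.5 and 100 CPM in Col-0 12 DAS. The gene fell by 5.99 in adr1s and by 1.96 with ADR1 intact, a difference of 4.04 ± 0.28 (adjusted p = 2.15e-09), in a class of 19 genes lowered in both backgrounds and more in adr1s. Iron deficiency genes had 6 negative and 1 positive difference among 11, beside 32.5% and 26% of all genes. For IMA1, IMA2, BHLH100 and BHLH39 the adr1s values rested on DM1-DM2d adr1s replicate 2. BHLH100, a transcription factor of iron uptake, was at 11 CPM in that replicate and at 0.316 and 1.25 CPM in the other two. Other lists were nearer the shares of all genes: 7 positive and 5 negative of 19 further NLR receptors, 3 and 2 of 11 redox genes (4 negative without Col-0 12 DAS replicate 2), 18 and 19 of 68 heat shock genes, and none positive and 3 negative of 8 flavonoid genes. Of 4 homologs of RPW8, a family of membrane proteins that broaden mildew resistance, 2 were positive and none negative. HR4, at 1.80 ± 0.70 (adjusted p = 0.0368), lost its call without most single libraries, and was 1.35 without Col-0 12 DAS replicate 2. HR2, also called positive, had 2 counts in Col-0 12 DAS, 6 in Col-0 adr1s and 16 in DM1-DM2d adr1s, against 851 in DM1-DM2d. Its difference was 5.36 to 9.79 with single libraries left out.

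The same difference of effects was tested against that of DM6-DM7, a line of another DM gene pair. Its effect in adr1s was DM6-DM7 adr1s (n = 3) against the same Col-0 adr1s libraries, and its effect with the ADR1 genes intact was DM6-DM7 (n = 3) against Col-0 14 DAS (n = 3), both collected at 14 DAS. The 2 differences of effects differed for 10137 genes (43.4%), 4387 more positive for DM1-DM2d (18.8%) and 5750 more negative (24.6%). EDS1 differed by 2.21 ± 0.32 (adjusted p = 3.08e-05) and PAD4 by 3.16 ± 0.66 (adjusted p = 0.00119), both more positive for DM1-DM2d. LHCB5 differed by -3.17 (adjusted p = 1.86e-07), LOX2 by -5.52 (adjusted p = 2.52e-08) and WES1 by 3.37 (adjusted p = 1.16e-09). Those of ADR1 (0.21, adjusted p = 0.677), ADR1-L2 (0.17, adjusted p = 0.692) and SAG101 (0.47, adjusted p = 0.164) were not called. Line, age and label batch move together in this comparison and cannot be told apart.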

How the data were processed

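RNA-seq counts of 20 Arabidopsis thaliana shoot libraries were used, 11 of them for the difference described. The authors deposited whole-number counts per gene for 32833 genes, with no normalization. Per the submitters' processing notes, the build was TAIR10 and the tools include HISAT2 (2.2.1) beside featureCounts (2.0.1), fastp (0.23.2) and DESeq2 (1.34.0); strand-specific paired reads were made, per the labels' protocols. Counting options and RNA selection are not given in the sources used here. Between 64.9% and 73% of low counts were even in the 11 libraries. No replicate columns were identical.

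Groups came from the labels. All 20 libraries entered 1 edgeR 4.0.16 fit (R 4.3.3) with 7 group means, TMM factors (0.723 to 1.25 in the 11 libraries), filterByExpr at a minimum of 10 counts (23349 genes kept), robust quasi-likelihood tests and Benjamini-Hochberg adjustment over all genes at 0.05. The standard error is the log2 value over the square root of F. A gene with at most 3 counts in a group is given by its values; such limits cover counting error only. Gene names and positions came from the RefSeq annotation of TAIR10.1, where 32548 identifiers matched by locus tag; the rest are organelle genes. Windows of 250 bases before gene starts came from the same assembly.

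The 35 gene lists and the 7 drawn from annotation were chosen with earlier results of these data known. Genes were named by rule: the ADR1 genes, EDS1 node, DM relatives and key salicylic acid genes; among genes averaging 2 CPM or more, the 8 highest and 8 lowest differences; the 5 lowest adjusted p in each direction; up to 4 called members per list in the majority direction, 2 in the other and 2 called alike in both backgrounds; and the 4 lowest adjusted p per class with a mean of at least 10 CPM. Not all of these are described. The pipeline was tested on simulated data. Alternatives were RLE and upper-quartile scaling, DESeq2 1.42.0, no filter, a fold threshold of 2, a minimum of 50 counts, a cut-off of 0.01 on the adjusted p, the 11 libraries alone, organelle genes removed, a replicate block and each library left out.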

Additional observations from a re-analysis of the deposited data

Results flagged for a closer look

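Each entry here is a test of whether the difference of effects (ADR1 intact minus adr1s) differed between DM1-DM2d and DM6-DM7, in either direction, in the edgeR fit. The 2 differences share the Col-0 adr1s libraries, and line, age and label batch move together. In all, 10137 genes (43.4%) passed this test, 4387 more positive for DM1-DM2d (18.8%) and 5750 more negative (24.6%). More positive for DM1-DM2d were PR1 (3.55, SE 1.05, adjusted p = 0.0126), ICS1 (3.32, SE 0.79, adjusted p = 0.00315), PAD4 (3.16, SE 0.66, adjusted p = 0.00119), EDS1 (2.21), ADR1-L1 (1.42) and NPR1 (0.94). Among NLR genes the same held for AT3G44630 (1.97), AT5G41740 (1.56), AT3G44670 (1.14), NRG1.2 (1.11), RPP1 (1.00) and NRG1.1 (1.00), with adjusted p from 1.45e-05 to 0.00631. For PR1 the DM1-DM2d difference itself was not called (-0.28), so a called contrast between the lines stands beside a difference of DM1-DM2d with no call. The contrast between the lines was not refitted with single libraries left out. The DM1-DM2d difference within it was 2.30 for PR1 without Col-0 12 DAS replicate 1 and -1.21 without replicate 2. For ICS1 it was 4.54 and 2.11 in the same order, and for PAD4 it also moved, as given above.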

How the results depend on the processing

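The count of called differences (13658) stayed within 1.5 times under both scalings, DESeq2 (14141), no filter, a minimum of 50 counts, an adjusted p of 0.01 (11286), the 11 libraries alone (15232) and organelle genes removed (13554), and so did the counts of both effects. A fold threshold of 2 left 6339 differences, 2099 positive and 4240 negative, and 1564 genes changed in adr1s and 9703 with ADR1 intact. Leaving out 1 library at a time gave 12233 to 13145 differences (5174 to 5842 positive, 7042 to 7390 negative), 8447 to 9066 genes changed in adr1s and 15329 to 16394 with ADR1 intact. Without Col-0 12 DAS replicate 1, the difference of PR1 took the value 2.30 (range over single libraries left out -1.21 to 2.30) and that of WAK1, a wall-associated kinase, 1.12 (-1.76 to 1.12); the cause was not tested. Upper-quartile scaling gave 33.7% of calls positive, against 44.4% as reported, 47.1% with RLE, 47.4% with DESeq2 and 43.4% without organelle genes.

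Same-numbered replicates did not deviate together (correlations -0.033 to -0.007), so the numbers name libraries only. A replicate block gave 12949 differences, 9582 genes changed in adr1s, 16224 with ADR1 intact and 9541 that differed between the lines; 9 of the genes followed lost their call, WRKY40, BIK1, BHLH100 and BHLH39 among them, and 2 gained one. Under the block the salicylic acid synthesis list had 5 positive differences, the pattern-triggered list none negative and the iron list 2 negative. Col-0 12 DAS had 2 libraries, and 3 counts in a library equal 0.033 to 0.058 CPM, which limits values near 0 such as AACT1 in DM1-DM2d.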
